A study of Danio rerio with 8 samples.

Results

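The transcriptome of wild type whole zebrafish embryos at 2 days post-fertilisation (2 dpf) is described here from the 4 wild type clutches among the 8 clutches of a study of fmr1, the gene behind Fragile X Syndrome. The 4 clutches were taken by their genotype label alone, and no genotypes are compared. Each clutch (A, D, G and L, replicates 1 to 4) was a pool of approximately 100 whole embryos. Per the methods, the embryos were taken out of their chorions in E3 medium and cooled on ice before they were preserved. Each clutch came from its own pair of fmr1+/+ parents. Those parents were non-mutant progeny of heterozygote crosses in a population that carried the hu2787 allele of fmr1. The other 4 clutches were homozygous for hu2787, and of them only the spread between clutches is used, never the levels. The recessive w2 allele of mitfa (nacre), which removes melanophores when homozygous, was present in some clutches of the study, and which of the wild type clutches carried it is not given in the sources used here. The paper states that no parent of the sequenced clutches was homozygous for w2. It also reports, from a later check, that the allele had no great effect on its transcriptome analysis. A pool averages over siblings, so the spread between single embryos cannot be read from the spread between clutches.

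At 2 dpf a zebrafish embryo has a beating heart, moving trunk muscle, pigment, a lens and a layered retina, and it still lives on its yolk. Its outer skin layer, the periderm, is a sheet of keratin-rich cells, and most of its trunk is fast muscle. Photoreceptors, cartilage and exocrine pancreas are early in their differentiation at this age, and the hatching gland is about to release the enzymes that digest the chorion.

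PolyA+ RNA was sequenced from each clutch as a strand-specific library, and the total of reads counted in genes was 32624379 in A, 33205738 in D, 33165593 in G and 29296538 in L. Of the 32057 genes in the table, 22739 had counts in all 4 clutches and 1062 in only 1. To compare genes with each other, counts were divided by the exon length of the gene and scaled to the same sum in every clutch (transcripts per 1000000 transcripts, TPM). To compare clutches for the same gene, counts were normalised by the trimmed mean of M-values (TMM) and are called normalised counts. The scales differ between clutches: the normalised counts put L above D by 0.32 more on the log2 scale than TPM does. Which clutch has the highest or the lowest sum of a list is therefore said only where both scales share it.

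In all, 18102 genes (56.5%) had a mean of at least 1 TPM, which is called expressed below. At least 10 TPM was reached by 8444 genes, at least 100 TPM by 1115, at least 1000 TPM by 161 and at least 10000 TPM by 4. Few genes held most of the transcripts. The 40 most abundant genes held 25% of all TPM, 163 genes held 50% and 1159 genes held 75%. The 10 most abundant genes held 10.3% of TPM in A, 8.88% in D, 11.1% in G and 11.9% in L (mean 10.5% ± 1.27, SD, n = 4), and the 100 most abundant held 41.4% ± 2.499.

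The most abundant transcripts came from fast muscle, periderm, mitochondria, yolk lipid transport and ribosomes. At the top stood actc1b (ENSDARG00000099197, GRCz11 chromosome 17, 117024 to 125091, minus strand), an actin of striated muscle, with 11189 TPM in A, 9994 in D, 20266 in G and 21956 in L. Next came krt4 (ENSDARG00000017624, GRCz11 chromosome 6, 39308498 to 39313027, minus strand), a keratin of the outer skin, with 21695 TPM in A, 18134 in D, 10774 in G and 12240.0 in L. The order of these genes depended on the clutch: krt4 was above actc1b in A and D, and actc1b was above krt4 in G and L. Down to the 20th gene, the range of each gene overlapped with that of the next in all 20 neighbouring pairs, and only 2 pairs kept their order in all 4 clutches (mt-co2 above mt-co1, and mt-co1 above si:dkey-151g10.6).

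**Figure D1:**
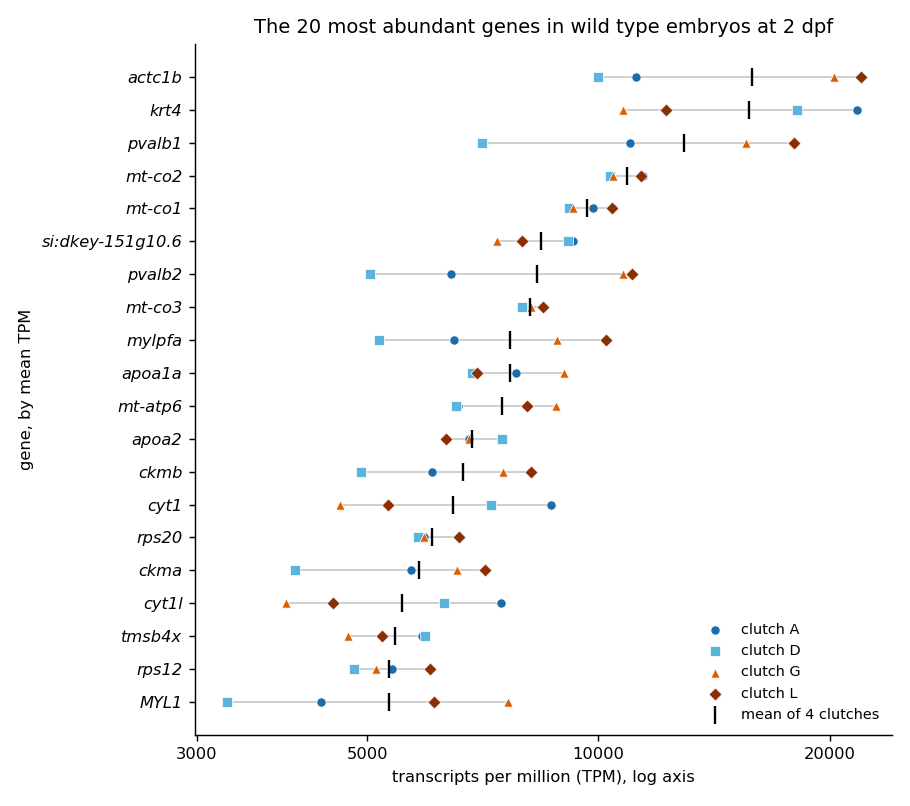
The 20 most abundant genes, ordered by mean TPM, with TPM on a log axis. Each symbol is a clutch, the vertical tick is the mean of 4 clutches and the grey line joins the lowest and the highest clutch. The muscle genes (actc1b, pvalb1, pvalb2, mylpfa, ckmb, ckma and MYL1) had A and D to the left of G and L, and the keratins krt4, cyt1 and cyt1l had A and D to the right.

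Fast muscle supplied 7 of the 20 genes. Besides actc1b these were pvalb1 and pvalb2, parvalbumins that bind calcium and speed relaxation (12910.3 ± 4864 and 8327 ± 3048 TPM, SD, n = 4), the myosin light chains mylpfa (7676 ± 2270.4) and MYL1 (5343 ± 1921), and the muscle creatine kinases ckmb (6666 ± 1462) and ckma (5848 ± 1344), which buffer ATP. In each of the 7 genes D was the lowest clutch, and G and L were above A and D.

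Periderm supplied the keratins krt4, cyt1 (6469.6 ± 1851 TPM) and cyt1l (5549 ± 1628 TPM), in all of which A was the highest and G the lowest clutch. The mitochondrial genome supplied 4 genes, mt-co2 (10900.1 ± 586 TPM), mt-co1 (9668 ± 574), mt-co3 (8145 ± 245) and mt-atp6 (7491 ± 1133), which encode subunits of cytochrome c oxidase and of ATP synthase. Its 37 genes together held 5.71% ± 0.337 of TPM, with every clutch between 5.33% and 6.05%.

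The apolipoproteins apoa1a (7662 ± 1015 TPM) and apoa2 (6846 ± 473 TPM) carry lipid. Of the 20 genes, apoa2 had the smallest coefficient of variation (CV, the SD over the mean of the normalised counts with the counting error taken off), at 0.0226. That rank holds for normalised counts only. In TPM, mt-co3 (8145 ± 245) spread less for its mean than apoa2. The remaining genes were rps20 (6065 ± 345 TPM) and rps12 (5343 ± 522 TPM), proteins of the small ribosomal subunit, tmsb4x (5442 ± 583 TPM), which binds actin monomers, and si:dkey-151g10.6 (8431 ± 924 TPM).

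Ribosomal protein genes formed a larger block than any of these. All 84 were expressed, 40 of them stood among the 100 most abundant genes, and together they held 18.3% of TPM in A, 16.8% in D, 16.3% in G and 17.6% in L. Their median CV was 0.122, near the 0.121 of all genes tested, and 1 of the 83 tested was variable, rps11l, with 149 normalised counts in A, 525 in D, 387 in G and 17.7 in L (CV 0.846). The 23 keratin genes held 4.90% of TPM in A, 4.26% in D, 2.88% in G and 3.29% in L.

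Marker genes of 31 tissues were read as lists, and 346 different genes of these lists were found in the table. Of these, 308 (89.0%) were expressed, against 56.5% of all genes, and 3 had no counts in any clutch. All genes include 1901 copies of 5S_rRNA and 314 microRNA genes, none of them expressed, which lower the 56.5%. Because the embryos were sequenced whole, fewer cells of a type and less RNA per cell cannot be told apart in any sum that follows. A gene is called variable where its CV was above 0.5 and its mean at least 100 normalised counts. Among all 14696 genes with that mean, 328 (2.23%) were variable, and among the 280 tissue genes with that mean 19 (6.79%) were. Lists and members were chosen with earlier results of these data known, so such a difference is no test. A low gene can reach that mean through its high clutches alone, which favours a high CV. At 2.23% a short list is likely to hold no variable gene, so a list with none is not thereby steadier.

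**Figure D2:**
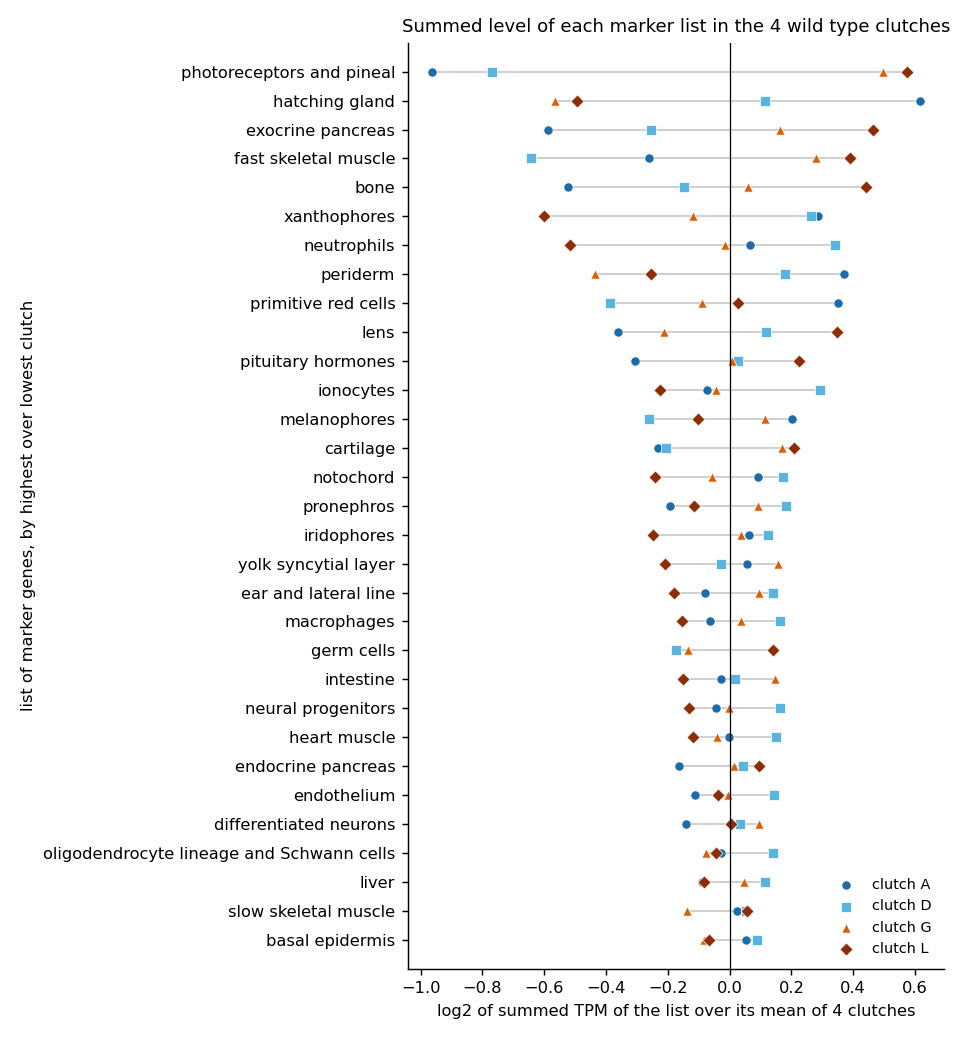
Summed TPM of each marker list in each clutch, as log2 of its ratio to the mean of the 4 clutches (0 on the axis), ordered by the ratio of the highest to the lowest clutch. Photoreceptor and pineal genes spread widely (123 TPM in A against 358 TPM in L), while the sum of basal epidermis stayed between 343 and 387 TPM.

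Of the tissue lists, fast muscle had the highest mean sum, although lists differ in their number of genes and the order of tissues therefore depends on the lists. Of 22 fast muscle genes listed, 17 were found by name. They summed to 65818 TPM in A, 50529.9 in D, 95905 in G and 103500.0 in L, with L 2.05-fold above D. The gene MYL1, among the 20 most abundant, is not in this sum, since lists were matched by exact name. In TPM, D was the lowest clutch for 16 of the 17 genes, pvalb4 being the exception, and either G or L was the highest for each. The median CV of the list was 0.363, and none of its genes passed 0.5.

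Slow muscle, the outer fibre layer of the trunk, was less abundant and steadier, at 1628 TPM in A, 1661 in D, 1458 in G and 1665 in L. Its leading genes were the light chain myl10 (676 ± 66.4 TPM), the troponin C gene tnnc1b (512 ± 58.6) and the slow myosin heavy chain smyhc1 (341 ± 30.8). Of 9 genes tested only the troponin T gene tnnt1 was variable, against 2.23% of all genes. It had 3.73 TPM in A, 2.03 in D, 8.82 in G and 8.35 in L. Heart muscle summed to 215 ± 16.99 TPM, led by the light chain myl7 (59.5 ± 2.81 TPM), the natriuretic peptide gene nppa (35.7 ± 11.9), the troponin T gene tnnt2a (30.4 ± 1.38) and the transcription factor gene hand2 (30.04 ± 2.39). None of its 9 genes tested was variable, and the troponin I gene tnni1a had 0 counts in all 4 clutches.

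The skin lists covered the outer and the inner layer. The 15 periderm genes summed to 50902 TPM in A, 44541 in D, 29089 in G and 32977 in L, and krt4 gave 39.9% of the mean. The keratin krt5 (3107 ± 226 TPM, CV 0.107) spread less than krt4 (CV 0.307). Of 15 genes tested, 1 was variable, against 2.23% of all genes. This was the adhesion gene epcam, which followed another pattern, with 214 TPM in A, 61.8 in D, 279 in G and 378 in L. Basal epidermis, the stem cell layer under the periderm, was led by krt15 (134 ± 11.96 TPM), the hemidesmosome collagen gene col17a1a (87.7 ± 6.03), the chemokine gene cxcl14 (56.6 ± 14.01) and tp63, the transcription factor gene of epidermal stem cells (34.9 ± 4.95).

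Ionocytes, the skin cells that take up salts from the medium, summed to 215 TPM in A, 277 in D, 219 in G and 193 in L. The list was led by the proton pump subunit gene atp6v1aa (112 ± 11.6 TPM), which other cells also use, the carbonic anhydrase genes ca2 (44.2 ± 19.6) and ca15a (23.4 ± 6.32), and foxi3b (15.7 ± 2.45), a transcription factor gene of the ionocyte lineage. The gene ca2 had 53.9 TPM in A, 67.01 in D, 30.6 in G and 25.4 in L, so that its values in A and D were above those in G and L.

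The 9 hatching gland genes summed to 1792 TPM in A, 1265 in D, 789 in G and 830.4 in L. Of 7 tested, 2 were variable, against 2.23% of all genes. The hatching enzyme gene he1.1 had 1072 TPM in A, 608 in D, 318 in G and 384 in L and was variable (CV 0.577), as was the cathepsin L gene ctslb with 20.5 TPM in A, 8.14 in D, 3.66 in G and 7.9001 in L. The enzyme gene he1.2 had 414 TPM in A, 296 in D, 163 in G and 143 in L (CV 0.487). The transcription factor genes xbp1 and creb3l2 did not share this spread: the CV was 0.0312 for xbp1 and 0.0915 for creb3l2. The list also names the transcription factor genes klf17 and bhlha15, whose spread is not reported here. Without clutch A, none of the list passed a CV of 0.5.

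In blood the embryonic globins dominated. Of 15 primitive red cell genes listed, 11 were found. The alpha globin hbae3 gave 73.7% of their sum, with 5570.2 TPM in A, 3219 in D, 4229.8 in G and 4402 in L. It was followed by hbae1.3 (745 ± 66.8 TPM). Against 2.23% of all genes, 2 of the 10 genes tested were variable. These were hbbe3, with 836 TPM in A, 387 in D, 271 in G and 406 in L, and hbae1.1, with 113 TPM in A, 98.4 in D, 113 in G and 219.8 in L, which peaked in different clutches. Without D or without L, 1 of the list was variable. Globin copies are similar in sequence and only uniquely mapped reads were counted, so the levels of single globins are uncertain. The adult globins hbaa1 (0.331 TPM) and hbaa2 (0.0547 TPM) had 0 counts in A.

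Of the eye, the lens was the abundant part. Its 17 listed crystallin and fibre genes summed to 2691 TPM in A, 3751 in D, 2981 in G and 4393 in L, led by crybb1 (1073 ± 258 TPM), crygn2 (585 ± 150.3), cryba4 (462 ± 113) and cryba1b (375 ± 77.4). None of the 13 genes tested was variable, with a median CV of 0.306. The gamma M crystallins, a family of similar lens proteins, held 32 genes, of which 23 were expressed and 3 had no counts. They summed to 5945 TPM in A, 7121 in D, 7857 in G and 11681 in L. For 21 of the 22 members tested L was the highest clutch, against 30.8% of all genes tested. Of these 22, 7 were variable, against 2.23% of all genes. Among the variable members was crygm2d9 with 205 TPM in A, 77.9 in D, 154 in G and 367 in L. Near-identical copies in this family make the level of a single member uncertain, and the members are not separate observations.

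The photoreceptor and pineal list was low and uneven, at 123 TPM in A, 141 in D, 339 in G and 358 in L. Of its 19 genes 14 were found. Of its 11 genes tested, 7 were variable, against 2.23% of all genes and 4.55% of those between 100 and 300 counts. The gene gnat2 reached the filter only through G and L (46.0 normalised counts in A, 47.3 in D, 223 in G and 240 in L). The same held for gngt2b (48.0 normalised counts in A, 20.5 in D, 418 in G and 519 in L). Such entry favours a high CV, so the 7 genes are a description and no test. The red cone opsin gene opn1lw2 (ENSDARG00000044861, GRCz11 chromosome 11, 25481046 to 25483206, plus strand) had 4.23 TPM in A, 2.45 in D, 33.8 in G and 40.8 in L. The cone transducin gamma gene gngt2b had 4.94 TPM in A, 2.405 in D, 43.9 in G and 48.9 in L, and the cone arrestin gene arr3a 7.898 TPM in A, 8.899 in D, 31.4 in G and 31.9 in L. In each of them the values in A and D lay under those in G and L.

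The other variable members were the transducin alpha genes gnat1 of rods and gnat2 of cones, the rod arrestin gene saga and the cone arrestin gene arr3b. The green cone opsin gene opn1mw1 was too low to be tested, at 0.152 TPM in A, 0 in D, 6.21 in G and 6.35 in L. The gene crx, which encodes a transcription factor of photoreceptor precursors, was the highest of the list with 62.9 TPM in A, 74.7 in D, 131 in G and 132 in L (CV 0.4199). The enzyme gene aanat2, which acts in melatonin synthesis in the pineal organ, was steadier, at 5.05 TPM with a CV of 0.191. Outside the list, the opsin gene that the name table gives as OPN1SW had 25.002 normalised counts in A, 19.6 in D, 635 in G and 659 in L.

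The sums of the nervous system lists were more even. Differentiated neurons summed to 2631 TPM in A, 2968 in D, 3102 in G and 2908 in L, led by the tubulin gene tubb5 (693 ± 86.9 TPM), stmn1b, which regulates microtubules (399.7 ± 48.1), the synuclein gene sncb (349 ± 46.1) and gap43 of growth cones (269.8 ± 39.7). Neural progenitors summed to 1916 ± 167 TPM, and the radial glia gene fabp7a gave 57.5% of it. The stem cell factor gene sox2 had 78.5 TPM in A, 93.3 in D, 82.3 in G and 75.6 in L and a CV of 0.0124. None of the 19 neuronal and none of the 14 progenitor genes tested was variable, against 2.23% of all genes. Gene by gene these lists were not steadier than others. Their median CVs were 0.168 for neurons and 0.174 for progenitors, above the 0.121 of all genes tested.

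In the list of the oligodendrocyte lineage and Schwann cells, 1 of 7 genes tested was variable, against 2.23% of all genes. The myelin basic protein gene mbpa (ENSDARG00000036186, GRCz11 chromosome 19, 21814047 to 21832630, minus strand) had 5.0005 normalised counts in A, 7.14 in D, 48.4 in G and 699 in L. It reached the filter through L alone, which favours a high CV. Its duplicate mbpb had 1603 normalised counts in A, 1669 in D, 2010.1 in G and 2213 in L and a CV of 0.152. The myelin proteolipid gene plp1a was higher in A and D than in G and L, with 60.3 TPM in A, 55.2 in D, 25.3 in G and 21.02 in L (CV 0.466), while the lineage genes olig2 (29.9 ± 6.75 TPM) and foxd3 (31.3 ± 5.76 TPM) spread less.

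Ear and lateral line genes summed to 399 ± 41.2 TPM. They were led by pvalb9 (196 ± 35.2 TPM), cldnb of the lateral line epithelium (140.5 ± 7.65), otomp, which encodes a protein of the otolith matrix (33.8 ± 2.16), and atoh1a, the hair cell fate gene (7.61 ± 1.56). None of the 10 genes tested was variable.

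Of the skeletal tissues, notochord genes summed to 333 TPM in A, 352 in D, 300.2 in G and 264 in L, led by cmn (67.6 ± 15.4 TPM), cav1 of caveolae (63.4 ± 12.4), epyc (41.7 ± 4.39) and col8a1a (39.9 ± 5.199), and none was variable. Cartilage summed to 1656 TPM in A, 1684 in D, 2187 in G and 2247 in L, led by the fibril collagen gene col2a1a with 582 TPM in A, 601 in D, 864 in G and 813 in L, followed by col9a2 (267 ± 30.1 TPM), col9a3 (247 ± 28.6) and matn4 (233 ± 25.1).

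Of 12 cartilage genes tested, 3 were variable, against 2.23% of all genes. The matrilin gene matn1, which encodes a linker of the cartilage matrix, had 10.9 TPM in A, 5.22 in D, 67.2 in G and 113 in L. The aggrecan gene acana had 2.86 TPM in A, 3.18 in D, 7.52 in G and 9.12 in L, and the collagen gene col9a1a 72.0001 TPM in A, 60.01 in D, 122 in G and 156 in L. In each of the 3 genes G and L were above A and D, whereas the cartilage transcription factor gene sox9a had a CV of 0.0957. Bone genes were low (86.1 ± 23.9 TPM), and col10a1a of early osteoblasts gave 77.0% of the sum, with 43.1 TPM in A, 61.8 in D, 67.8 in G and 92.4 in L.

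Lists of tissues that handle yolk lipid were abundant and even. The yolk syncytial layer list summed to 13895 TPM in A, 13090.4 in D, 14889.8 in G and 11537 in L, with apoc1 (3321 ± 511 TPM), apoeb (1038 ± 157) and apoa4b.1 (721 ± 77.7) behind apoa1a. The liver list summed to 11083 ± 772 TPM, with apoa1b (1925 ± 209), the retinol carrier gene rbp4 (761 ± 108) and the transferrin gene tfa (404 ± 94.3) behind apoa2. In these sums apoa1a gave 57.4% of the yolk syncytial layer list and apoa2 61.8% of the liver list. How much of these transcripts came from the liver and how much from the yolk syncytial layer was not tested. None of the 10 and 12 genes tested in these lists was variable. In the intestine list the fatty acid binding protein gene fabp1b.1 gave 82.5% of the sum (1623 ± 154 TPM), followed by fabp2 (250.2 ± 53.9). Villin (vil1), of the brush border, was the 1 variable gene of 5 tested, against 2.23% of all genes. It was low, at 0.918 TPM in A, 0.878 in D, 2.62 in G and 2.34 in L. The bile acid binding fabp6 had no counts.

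The pancreas was seen mainly by its endocrine genes. That list summed to 244 TPM in A, 282 in D, 276 in G and 292 in L, with neurod1 (82.9 ± 11.6 TPM) and isl1a (59.7 ± 7.03), which neurons also express, the insulin gene ins (55.8 ± 4.502) and the somatostatin gene sst2 (29.7 ± 5.68). The exocrine list summed to only 24.4 ± 7.64 TPM. Of its 10 genes 5 were expressed, near the 56.5% of all genes. Of 2 genes tested, 1 was variable, against 2.23% of all genes. This was trypsin (prss1), a digestive protease, with 3.91 TPM in A, 3.76 in D, 13.3 in G and 17.2 in L. It reached the filter only through G and L, which favours a high CV. The fate gene of the lineage, ptf1a, had 9.354 TPM in A, 13.3 in D, 7.82 in G and 7.35 in L. Pronephros genes summed to 139 ± 16.8 TPM, led by lhx1a (64.9 ± 10.3), pax2a (19.9 ± 3.02), the cadherin gene cdh17 (18.3 ± 2.38) and pax8 (17.2 ± 2.33), and none of 7 tested was variable. In this sum lhx1a gave 46.7%. Which tissues the transcripts of ptf1a and of the pronephros list came from was not tested.

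Genes of all 3 pigment cell types were expressed. Melanophore genes summed to 1214 TPM in A, 881 in D, 1142 in G and 983 in L, led by the melanin synthesis genes tyrp1b (428 ± 70.15 TPM) and dct (185 ± 25.7) and the melanosome protein gene pmela (178 ± 24.9). The gene mitfa itself was at 8.77 TPM in A, 8.82 in D, 10.4 in G and 8.36 in L. The part of the w2 allele in these values was not tested here. Xanthophores, the yellow cells, summed to 581 TPM in A, 571 in D, 438 in G and 314 in L, and gch2, which starts pteridine synthesis, gave 72.2% of it. Iridophores summed to 81.9 ± 8.96 TPM, with pnp4a at 21.2 ± 3.66 and gpnmb at 20.03 ± 0.991. No gene of the pigment cell lists was variable.

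Vessels and innate immune cells were represented at low levels. Endothelial genes summed to 133 ± 10.04 TPM, led by plvapb (37.7 ± 4.06), cldn5b (31.99 ± 4.8003), cdh5 of endothelial junctions (13.3 ± 2.43) and egfl7 (11.8 ± 2.04). Neutrophil genes summed to 203 TPM in A, 245 in D, 192 in G and 136 in L, led by the lysozyme gene lyz with 74.9 TPM in A, 97.1 in D, 72.1 in G and 41.9 in L. Macrophage genes summed to 34.7 ± 3.299 TPM, with lcp1 at 16.998 ± 4.13 and the receptor gene csf1ra at 7.26 ± 1.73. Pituitary hormone genes summed to 16.4 ± 2.42 TPM, with prolactin (prl) at 6.897 ± 1.29 and pomca at 5.44 ± 2.03, while fshb had no counts. Germ cell genes, carried by few cells of an embryo, summed to 7.59 ± 0.892 TPM, with ddx4 at 2.35 ± 0.778.

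The 6 lists of processes held 110 different genes, and 12 of the 83 tested (14.5%) were variable, against 2.23% of all genes. These lists too were chosen with earlier results of these data known, so this share is no test. In the heat shock and chaperone list 5 of 15 genes tested were variable. The chaperone genes hsp90ab1 and hspa8 were high, and in TPM they spread little. The levels were 1578 TPM in A, 1648 in D, 1641 in G and 1740.0 in L for hsp90ab1, and 1316 ± 65.7 TPM for hspa8. All 5 variable members had A and D under G and L. The collagen chaperone gene serpinh1b (ENSDARG00000019949, GRCz11 chromosome 15, 29382454 to 29388012, minus strand) had 25.9 TPM in A, 30.9 in D, 263 in G and 215 in L.

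The Hsp90 alpha gene hsp90aa1.1, known for its part in muscle myosin folding, had 72.5 TPM in A, 83.2 in D, 364 in G and 187 in L, and hsp90aa1.2 had 34.1 TPM in A, 38.8 in D, 238 in G and 192 in L. The heat-inducible gene hsp70.3 had 7.02 TPM in A, 4.45 in D, 20.1 in G and 9.57 in L, and hspa8b had 2.32 TPM in A, 2.69 in D, 9.302 in G and 10.1 in L. Other heat-inducible genes stayed low: hsp70l was at 2.84 TPM with a CV of 0.166, and hsp70.1 at 0.679 TPM. The chaperone genes of the endoplasmic reticulum, hspa5 (205 TPM in A, 284 in D, 523 in G and 384 in L) and hsp90b1 (180.3 TPM in A, 231 in D, 441 in G and 371 in L), also had A and D under G and L, with a CV of 0.417 and 0.433.

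Immediate early genes, which respond within minutes to stimulation, summed to 204 TPM in A, 282 in D, 286 in G and 248 in L. Against 2.23% of all genes, 3 of 13 tested were variable. These peaked in different clutches: junbb had 9.903 TPM in A, 30.9 in D, 10.98 in G and 7.66 in L, fosab had 4.32 TPM in A, 11.3 in D, 18.5 in G and 10.5 in L and egr1 had 5.98 TPM in A, 6.97 in D, 15.4 in G and 15.7 in L. The leading gene jun was at 79.03 ± 13.9 TPM, followed by dusp1 (49.2 ± 6.69) and ier2a (22.1 ± 3.46). Without D, 1 gene of the list was variable.

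Circadian clock genes, which zebrafish cells run in step with light, gave 2 variable members of 26 tested, against 2.23% of all genes. The cryptochrome gene cry3a had 52.4 TPM in A, 67.5 in D, 141 in G and 132 in L, and nr1d1, which encodes a repressor of the clock, 3.08 TPM in A, 2.63 in D, 5.27 in G and 1.39 in L. The clock-driven gene tefa was lower in G and L, with 62.04 TPM in A, 63.2 in D, 40.6 in G and 23.9 in L (CV 0.3505), and bhlhe40 and ciarta were at 44.6 ± 5.05 and 35.7 ± 7.72 TPM. Without A, without G or without L, 1 clock gene was variable. The hour at which each clutch was collected is not given in the sources used here.

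Targets of hypoxia and of glucocorticoids had 1 variable member of 10 tested, against 2.23% of all genes. This member was klf9, a glucocorticoid-responsive gene, with 23.8 TPM in A, 21.6 in D, 10.6 in G and 6.31 in L. The glucocorticoid target fkbp5 was likewise higher in A and D than in G and L (64.3 TPM in A, 74.4 in D, 32.1 in G and 26.9 in L, CV 0.416). In the interferon and complement list the complement gene c3a.1 (165 ± 29.8 TPM) gave 78.8% of the sum. Its copy c3a.3 was the 1 variable gene of 4 tested, against 2.23% of all genes. It had 154 normalised counts in A, 312 in D, 13.6 in G and 16.5 in L, and reached the filter only through A and D. In this list 8 of the 17 genes were expressed, against 56.5% of all genes. Proliferation genes summed to 1877 TPM in A, 1856 in D, 1595 in G and 1376 in L, led by the replication clamp gene pcna (542 ± 92.1 TPM), rrm1 (155 ± 27.3), mcm7 (132 ± 16.2) and cdk1 (98.6 ± 8.94), and none of 15 was variable.

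Genes of the egg or of later life were close to absent. In 6 such lists with 58 different genes, 9 (15.5%) were expressed, against 56.5% of all genes. Only 3 had no counts at all, 5.17% against 19.7% of all genes and 9.50% of genes of at least 300 bases. Most were thus detected at a trace. The 8 vitellogenins, the yolk proteins made by the adult female liver, summed to 0.902 ± 0.356 TPM, led by vtg7 at 0.449. Egg coat genes summed to 1.54 ± 0.5797 TPM, with zp3b at 0.483 and zpd without counts.

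Of 14 maternal and pluripotency factors, 11 were under 1 TPM, including nanog (0.0515 TPM), pou5f3 (0.653 TPM) and buc (0.0145 TPM), and ved was the highest at 3.63 TPM. In adaptive immunity 11 of 13 genes were under 1 TPM, among them the recombinase genes rag1 (0.426 TPM) and rag2 (0.696 TPM), and cd79a had no counts. In the gonad and steroid list cyp17a1 (13.3 ± 5.18 TPM) and star (9.85 ± 1.39 TPM), which the interrenal gland also uses, stood above the rest, and the receptor gene fshr had no counts. A count of 0 in all 4 clutches allows up to 0.0234 CPM (counts scaled to a total of 1000000) over the group, for counting error only. This takes each read as independent. Reads of a pair were counted separately, so the limit is higher where both reads come from the same fragment.

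Over the whole genome 6328 genes (19.7%) of the annotation were silent, that is, without a count in any of the 4 clutches. They were short: their median exon length was 164 bases against 1774 for all genes, and 57.6% of them were under 300 bases, against 11.9% of all genes. Of the 28255 genes of 300 bases or more, 2684 (9.50%) were silent. The libraries took polyA+ RNA and only uniquely mapped reads were counted, so for small RNAs without a polyA tail and for genes with many copies a count of 0 is no measure of transcription.

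By the start of the symbol, 125 families had at least 20 members. In 9 of them, which held 3062 of the silent genes, more than 50% of the members were silent. Over all genes the share was 19.7%. All 1901 copies of 5S_rRNA and all 314 microRNA genes were silent, as were 507 of the 513 genes whose symbol starts with U and a number, mostly spliceosomal RNAs. Of small nucleolar RNAs, 51 of 54 snord and 16 of 22 snora genes were silent. Antibody heavy chain segments (ighv) were silent in 38 of 39, trace amine receptors (taar) in 62 of 94 and pimr kinase-like genes in 118 of 180.

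Odorant receptors (or) were silent in 54 of 156, and none was expressed, with the highest, or42c5, at 0.6498 TPM. Over all genes 19.7% were silent and 56.5% expressed, and 9.50% of those of at least 300 bases were silent. The immune-type receptors nitr were silent in 12 of 24. Of the 125 families, 75 had no silent member. All 43 rpl, all 47 mrpl, all 48 ube and all 35 ddx genes, of ribosomes, mitochondrial ribosomes, ubiquitin transfer and RNA helicases, were expressed. So were 63 of 65 eif translation factors, 53 of 57 col genes (mostly collagens, led by col1a1a at 1367 TPM) and 23 of 29 sox transcription factors (led by sox11b at 287 TPM).

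By nuclear chromosome, the silent share was highest on chromosome 4, at 34.2% of 2380 genes, and lowest on chromosome 12, at 14.9% of 1016 genes. Among genes of at least 300 bases the share on chromosome 4 was 13.8%, close to chromosome 11 (13.4%) and chromosome 2 (13.3%). The long arm of chromosome 4 is known for repeats and large tandem families. Chromosome 4 held 1.61% of TPM, while chromosome 3 held 8.93%, the most of any chromosome.

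The spread between clutches was then read gene by gene. Over the 14696 genes with a mean of at least 100 normalised counts the median CV was 0.121, the 95th percentile was 0.401, and 5920 genes were under 0.1. The median ratio of the highest to the lowest clutch was 1.33, and 1526 genes passed 2-fold. A CV over 4 values is imprecise: its 95% interval, from the chi-square distribution for normal values, runs from 0.566 to 3.73 times the value. Single CVs are therefore given as a description, without a test, and neighbouring ranks are not told apart.

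**Figure D3:**
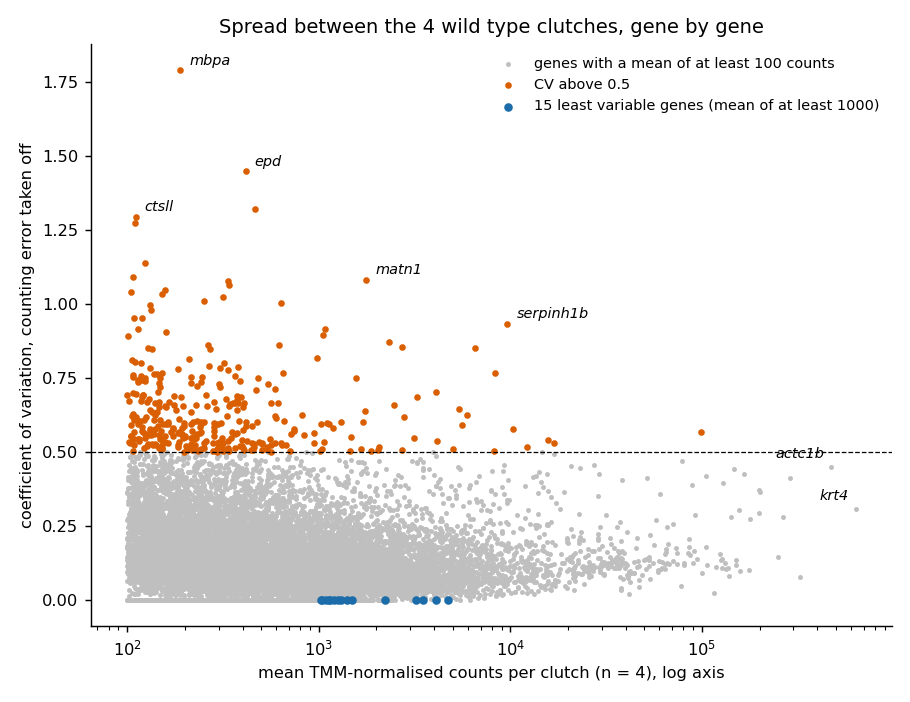
The CV of each gene between the 4 wild type clutches against its mean normalised count on a log axis. Grey points are the genes tested, orange points have a CV above 0.5 (dashed line) and blue points are the 15 least variable genes. The gene mbpa had the highest CV, and serpinh1b and matn1 stood high among genes with more counts.

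The share of variable genes fell from 4.55% of the 4268 genes between 100 and 300 counts to 1.65% of the 5578 genes between 300 and 1000 counts, and was 1.205% of the 415 genes above 10000 counts. The 328 variable genes had a median of 6.46 TPM, against 12.3 TPM for all genes tested. Names taken from sequencing clones (si:, zgc: and the like) made up 17.4% of the variable genes and 7.68% of the genes tested.

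The clutches were not evenly far from each other. Between A and D 136 genes differed more than 2-fold and between G and L 84 did, while the numbers were 553 for A and G, 611 for D and G, 931 for A and L and 1076 for D and L. Of the 328 variable genes, L was the highest clutch in 34.8% (30.8% of all genes tested) and the lowest in 40.2% (31.4%). D was the lowest clutch in 35.1% of them (25.5% of all genes tested), and G was the highest in 16.5% (19.1%).

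The 25 most variable genes had CVs of up to 1.79 and means between 0.814 and 134 TPM. L was the highest clutch in 11 of them, G in 9, A in 3 and D in 2, and D was the lowest in 15. Over all genes tested, L was the highest in 30.8%, G in 19.1%, A in 24.4% and D in 25.6%, and D was the lowest in 25.5%. They held eye genes, chaperones, matrix and immune genes, and genes of unknown role.

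**Figure D4:**
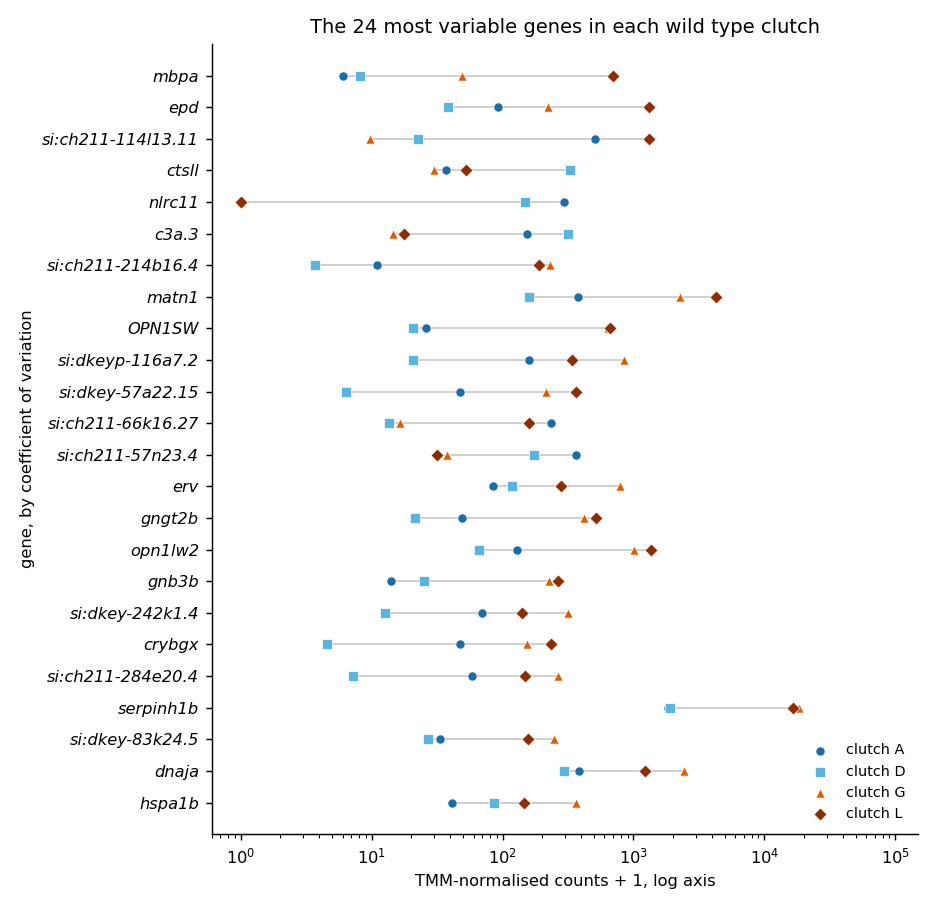
The 24 genes with the highest CV, with the normalised count plus 1 of each clutch on a log axis. The grey line joins the lowest and the highest clutch. For opn1lw2, gngt2b, gnb3b, OPN1SW, matn1 and serpinh1b A and D lay to the left of G and L, while nlrc11 had 0 counts in G and L, drawn at 1.

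Among the eye genes were OPN1SW, gngt2b, opn1lw2, the transducin beta gene gnb3b (13.001 normalised counts in A, 24.1 in D, 226 in G and 266 in L) and crybgx, named as a crystallin (46.004 normalised counts in A, 3.57 in D, 152 in G and 234 in L). The chaperone genes were serpinh1b, hspa1b and dnaja, of which hspa1b had 40.004 normalised counts in A, 84.8 in D, 365 in G and 145 in L and dnaja 381 normalised counts in A, 295 in D, 2432 in G and 1227 in L. In these 3 genes G was the highest clutch.

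For mbpa the CV was 1.79, with L far above the other clutches. Its 95% interval, 1.01 to 6.68, assumes normal values and a gene not picked for its CV, and neither holds for mbpa. For epd, which encodes an ependymin, a secreted glycoprotein of fish, L was again alone at the top, with 92.01 normalised counts in A, 37.5 in D, 221 in G and 1311 in L. The cathepsin gene ctsll had 36.003 normalised counts in A, 326 in D, 29.1 in G and 51.9 in L. The NLR family gene nlrc11 was found in A and D only, with 293 normalised counts in A, 146 in D, 0 in G and 0 in L, and si:ch211-114l13.11 was high in A and L, with 511 normalised counts in A, 21.4 in D, 8.72 in G and 1310.0 in L.

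The others were c3a.3, erv (84.01 normalised counts in A, 118 in D, 782 in G and 276 in L), matn1 and 8 further genes with clone names. Of those, si:ch211-214b16.4 was at 10.001 normalised counts in A, 2.68 in D, 228 in G and 190.0 in L, and si:ch211-57n23.4 ran the other way with 366 normalised counts in A, 174 in D, 36.8 in G and 30.7 in L. NLR, complement and cathepsin genes belong to families with similar copies, so that their single levels are uncertain.

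The most abundant of the variable genes was myhz1.2, a fast muscle myosin heavy chain gene, with 692 TPM in A, 399.6 in D, 1399 in G and 1396 in L. Next were he1.1, zgc:136930 (402 TPM in A, 333 in D, 586 in G and 899.5 in L), si:dkey-183i3.5 (342 TPM in A, 296 in D, 536 in G and 779 in L), hbbe3 and crygm2d4 (295 TPM in A, 252 in D, 343 in G and 684 in L). Myosin heavy chain genes have near-identical copies, and the level of a single one is uncertain.

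At the other end, the 15 least variable genes among the 4850 with a mean of at least 1000 normalised counts had a CV, counting error included, of 0.00358 to 0.0116. That is no more than counting error alone gives, so their order carries no information. The first was znf622 (ENSDARG00000014692, GRCz11 chromosome 2, 41563073 to 41571454, minus strand), with 1194 normalised counts in A, 1195 in D, 1203 in G and 1200.2 in L, followed by the malic enzyme gene me2 (1482 normalised counts in A, 1479.7 in D, 1494 in G and 1483 in L). Then came ube2g1b of ubiquitin transfer, polr2c of RNA polymerase II, rab6a of Golgi traffic, the splicing gene snrpa, nol9, reep3b, the transcription cofactor gene sub1a, tprb, the mitotic kinase gene cdk1, oxct1b of ketone use, copg2 of the COPI coat, zgc:66433 and neo1b.

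Genes often used as references in quantitative PCR were of mixed steadiness. None of the 20 tested was variable, their median CV was 0.105, and 9 were under 0.1. Among all 14696 genes tested 2.23% were variable, the median CV was 0.121, and 5920 were under 0.1. The counts of the reference genes are therefore not set apart from those of all genes. The lowest was tbp, of the TATA box binding protein, with 983 normalised counts in A, 979 in D, 956 in G and 943 in L (CV 0), and tmem50a (0.0491) and mob4 (0.0537) were next. The highest were gapdh, with 53329 normalised counts in A, 34133 in D, 33429 in G and 42110.2 in L (CV 0.227), and sdha (CV 0.202). In between lay eef1a1l1 (0.0771), actb1 (0.0978), actb2 (0.1002), tuba1a (0.109), rpl13a (0.122) and rps18 (0.127).

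The genes were ranked on the wild type clutches, so their spread was also read within the 4 homozygous clutches alone. There 333 of the 14539 genes tested in both sets (2.29%) had a CV above 0.5. Of the variable genes of the wild type clutches 307 could be tested, and 111 (36.2%) were variable there too. Of the 25 most variable genes 22 could be tested and 15 were variable there, among them gnb3b (CV 1.403 there), opn1lw2 (1.24), ctsll (1.21), gngt2b (1.18), c3a.3 (1.12) and matn1 (0.676).

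Others were not: the CV there was 0.193 for mbpa, 0.167 for epd, 0.329 for serpinh1b and 0.231 for dnaja. The 15 least variable genes had CVs there from 0.0396 to 0.247, with a median of 0.174 against 0.150 for all genes tested in both sets. Across genes, the rank correlation of the CVs of the 2 sets was 0.354, which describes genes that are not independent of each other and share their mean count.

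Zebrafish carry many gene pairs from the whole-genome duplication of teleost fish, named with a final a and b. Pairs were taken by such names alone, and their origin was not checked. Some have both members on the same chromosome, such as plp2a and plp2b on chromosome 8. Of 3050 pairs of names, 1678 had a member with at least 10 TPM. In 361 of these (21.5%) the mean TPM differed more than 10-fold. The median ratio was 3.05, and 542 pairs (32.3%) were within 2-fold. In 1528 pairs (91.1%) the same member was the higher in all 4 clutches. Among the unequal pairs the a copy was higher in 202 and the b copy in 159.

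**Figure D5:**
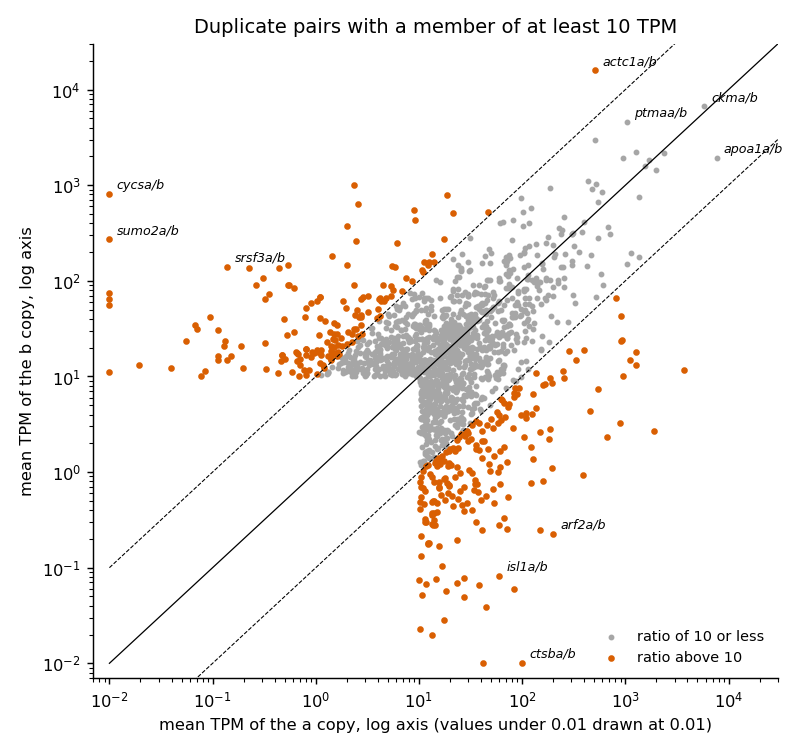
Mean TPM of the a copy against the b copy for 1678 pairs with a member of at least 10 TPM, both axes log, with values under 0.01 TPM drawn at 0.01. The solid line marks equal levels and the dashed lines a 10-fold ratio. Orange pairs (361) lie outside them, and cycsa/b, sumo2a/b and ctsba/b lie at the edge because 1 copy had no counts.

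The pairs of highest sum shared it differently. The actins were uneven, with actc1a at 512 TPM and actc1b at 15851 TPM, a ratio of 30.9, while the creatine kinases ckma and ckmb were near equal (5848 and 6666 TPM, ratio 1.14). For apoa1a and apoa1b the means were 7662 and 1925 TPM (ratio 3.98), and for the prothymosins ptmaa and ptmab 1027 and 4545 TPM (ratio 4.42). In each of these pairs the same copy was the higher in all 4 clutches.

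The most unequal pairs had a silent copy. For sumo2a and sumo2b, which encode small protein modifiers, sumo2a had 0 counts in all clutches and sumo2b 3738 in A, 4066 in D, 3944 in G and 3712 in L, which is at least 3424-fold higher per length with a floor of 3 counts per clutch. By the same floor, cycsb, of cytochrome c, was at least 1212-fold higher than cycsa, and the protease gene ctsba at least 1143-fold higher than ctsbb.

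A further 3 pairs had few counts in the lower copy. The splicing factor gene srsf3b was at 139 TPM, and srsf3a had 1, 1, 4 and 5 counts in A, D, G and L. The gene arf2a was at 198 TPM, with 10, 10, 2 and 6 counts for arf2b, and isl1a, of motor and sensory neurons, was at 59.7 TPM, with 5, 1, 4 and 1 counts for isl1b. No ratio is given for these pairs, since the lower copies had so few counts. A copy whose reads map to more than 1 place loses them in the counting, and the size of that loss was not tested.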

How the data were processed

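Counts were analysed for the 4 wild type clutches, with the 4 homozygous clutches used only for their spread. Per the labels and the methods of the study, the authors trimmed reads with AdapterRemoval 2.2.1, aligned them with STAR 2.5.3a to GRCz11 (Ensembl release 94) and counted uniquely mapped reads of mapping quality of at least 10 per gene with featureCounts 1.5.2, on the strand of the gene. The deposited values are raw counts, with an exon length per gene in bases. Reads of a pair were counted separately, so counts are of reads. Totals were between 29296538 and 33205738.

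TPM were computed from counts and length. TMM factors came from edgeR 4.0.16 (R 4.3.3), and the rest was computed in Python 3.11.15 (numpy 2.4.6, pandas 2.3.3, scipy 1.17.1). The CV was the SD over the mean of normalised counts with the Poisson part taken off. That part takes each read as independent, so for reads of a pair it can be too small. No test between groups was made. The 20 most abundant, 25 most variable and 15 least variable genes were named (1 of them is not reported here), with the leading and variable members of each list. Of 601 listed genes 537 were found. Symbols in capitals are as the name table gives them. Alternatives changed the length, the scaling, the filter, the thresholds and the clutches used. The members and lists were chosen with earlier results of these data known. Calculations were tested on simulated data.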

Additional observations from a re-analysis of the deposited data

Results flagged for a closer look

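Of 126 levels looked at across the 4 clutches, 6 were flagged. In these, the gap of a clutch to its nearest neighbour, as a part of the whole range, exceeded Dixon's 95% critical value for 4 samples. Chance flags about 1 in 20, which is 6.3 of the 126. The genes mbpa, epd and ctsll were among the levels because of their high CV, and zgc:66433 because of its low CV. The rate of 1 in 20 therefore does not apply to these genes. The total of counts was lowest in L (29296538, gap 0.851 of the range). The gene mbpa stood apart in L, with 699 normalised counts against at most 48.4 in the others (gap 0.937), and so did epd, with 1311 against at most 221 (gap 0.856). The gene ctsll stood apart in D, with 326 normalised counts against at most 51.9 (gap 0.923). For zgc:66433, among the least variable genes, G was apart (gap 0.902), although its 4 values ran only from 1083 to 1108 normalised counts. The summed level of the ionocyte list, on the TMM scale, stood apart in D, with 246 against 214 to 218 in the others (gap 0.877).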

How the results depend on the processing

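Of the 20 most abundant genes, 17 remained with lengths shortened by 150 bases, 16 without mitochondrial genes, 10 with CPM in place of TPM, since CPM takes no account of length, and 19 when any clutch was left out. Silent genes numbered 7892 at up to 3 summed counts and 6526 to 6648 leaving out a clutch, and expressed genes 15904 at 2 TPM, 19868 at 0.5 TPM and 17959 to 18160 leaving out a clutch. The median CV was 0.134 with total counts, 0.136 and 0.103 with means of at least 20 and 500 counts, 0.145 with no filter, 0.168 with edgeR dispersions that were shrunk, and 0.109 to 0.125 leaving out a clutch. Variable genes numbered 850, 73 and 2995 under those filters and 117 with shrunk dispersions, and from 238 without L to 407 without A. With the Poisson part taken off 2 times the median CV was 0.111 and 320 genes were variable. Unequal pairs numbered 604 over 5-fold, 216 over 20-fold, 543 at 1 TPM, 138 at 50 TPM and 357 to 365 leaving out a clutch. The share of variable genes also variable in the homozygous clutches, an alternative chosen after seeing the data, was 29.9% to 33.0% leaving out a wild type clutch, and 27.2% and 43.7% without replicate 3 and replicate 2 of the homozygous clutches. Of the 25 most variable genes, 24 or 25 stayed above a CV of 0.5 when any clutch was left out, but 7 to 16 remained among the first 25. Of the 15 least variable genes 3 to 8 remained, and 0 with total counts. The variable photoreceptor genes numbered 7 to 9 and the variable chaperone genes 4 to 7 leaving out a clutch, also chosen after seeing the data. No paired analysis was possible because a single group is described. At 4 clutches a CV is imprecise, and a count of 0 in all 4 allows up to 0.0234 CPM if each read is independent.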
